A study of Eutrema salsugineum with 41 samples.

Results

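Transcript levels in leaves of 2 T3 plants of Eutrema salsugineum that carry the Arabidopsis thaliana gene CMT3 (AtCMT3) were compared with those of a wild-type plant. AtCMT3-L1T3 and AtCMT3-L2T3 are plants of generation 3 from independently transformed lineages 1 and 2, and 3 of the 10 RNA-seq libraries and of the 41 samples in the series enter the comparison. All plants were of the Shandong ecotype and were grown on soil at 21 ºC with 16 h of light per day, and per the methods of the study the RNA came from cauline leaves of single plants. The transgene was the genomic sequence of AtCMT3 under its own promoter, introduced by floral dip in the vector pEarleyGate 302 and selected with BASTA, and the wild-type plant was not transformed. Each library is 1 plant, each lineage is represented by 1 plant at this generation, and wild type has 1 library. Lineage, transgene insertion and individual plant therefore cannot be told apart, and no p-value is given. The spread among plants is shown only by differences between single plants, those between the T3 plants and those among the other AtCMT3 plants.

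CMT3 is a plant DNA methyltransferase that methylates cytosines in the CHG context (H is A, C or T). In A. thaliana it is recruited to chromatin carrying dimethylation of histone H3 at lysine 9, and the CHG methylation that it maintains is in turn bound by the enzymes that write this histone mark, so that both marks are kept together at silenced transposons and repeats. E. salsugineum lacks its own CMT3, as well as the CG methylation within transcribed genes that is common in plants with CMT3. The comparison asks which transcripts were higher or lower in plants that had been given the enzyme.

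Levels are in TPM, a unit that corrects for transcript length and gives every library the same total of 1000000, to which the columns of the deposited table were rescaled. A gene was counted as up- or down-regulated when the log2 of the ratio of plant to wild type was at least 2 or at most -2 (4-fold), and as moved in both lineages when this held in both plants in the same direction. A mean of at least 1 TPM over the 3 libraries was required. Of 26352 genes 17153 met this minimum, and 17086 of them were above 0 in all 3 libraries, so that their ratios could be computed. The other 67 were listed at 0 in 1 or 2 of the 3 libraries and are described separately. The sums before scaling were 686516 for wild type, 693868 for AtCMT3-L1T3 and 676021 for AtCMT3-L2T3, and 19530, 19295 and 19274 genes were above 0. The table holds no read counts, so the sequencing depth behind each value is unknown.

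AtCMT3 itself was listed at 0.23 TPM in wild type, 77.2 TPM in AtCMT3-L1T3 and 158.6 in AtCMT3-L2T3. Both T3 plants were far above wild type, with log2 fold changes of 8.42 and 9.46, and AtCMT3-L2T3 was 2.05-fold above AtCMT3-L1T3. These levels follow the labels. The fold changes rest on a wild-type value under 1 TPM in a plant that was not transformed, so their size is uncertain. With 1 TPM added to all values they were 5.995 and 7.025. The tubulin gene TUB4 (Thhalv10003210m), which the study used as its reference for quantitative PCR, was at 70.3 TPM in wild type, 73.8 TPM in AtCMT3-L1T3 and 76.7 in AtCMT3-L2T3, and its 3 values were close together.

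Few genes moved 4-fold in both lineages. In AtCMT3-L1T3 134 genes (0.784% of the 17086) were up-regulated and 51 (0.298%) down-regulated. In AtCMT3-L2T3 95 genes (0.556%) were up-regulated and 51 (0.298%) down-regulated. The lists shared 36 up-regulated genes (0.211%), AtCMT3 included, and 7 down-regulated genes (0.041%). The shared genes made up 26.9% of the up-regulated list of AtCMT3-L1T3 and 37.9% of that of AtCMT3-L2T3, and 13.7% of each down-regulated list. Both ratios of a gene are taken over the same wild-type library, so a wild-type value that is high or low moves both in the same direction, and the size of the shared lists cannot be told apart from this. In bulk leaf tissue fewer cells of a type and less RNA per cell cannot be told apart either.

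The T3 plants differed from each other in about as many genes as each differed from wild type. Between AtCMT3-L1T3 and AtCMT3-L2T3 139 genes (0.814%) were at least 4-fold apart, 50 of them (0.293%) higher and 89 (0.521%) lower in AtCMT3-L2T3. Against wild type, in either direction, the counts were 185 genes (1.08%) for AtCMT3-L1T3 and 146 (0.855%) for AtCMT3-L2T3. The median absolute log2 difference over the 17086 genes was 0.27 between AtCMT3-L1T3 and wild type, 0.22 between AtCMT3-L2T3 and wild type and 0.28 between the T3 plants. In all, 15100 genes (88.4%) stayed within 2-fold of wild type in both T3 plants.

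**Figure D1:**
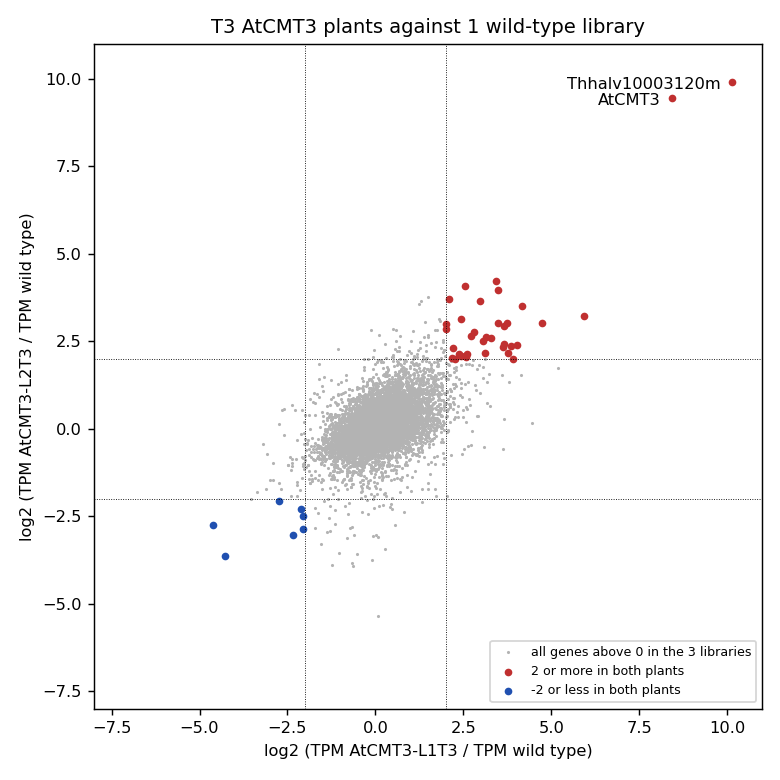
Log2 ratio of TPM to wild type in AtCMT3-L1T3 (x axis) and in AtCMT3-L2T3 (y axis), with 1 point for each of the 17086 genes whose ratios were computed; dotted lines mark 2 and -2. The 36 red genes were up-regulated and the 7 blue genes down-regulated in both plants, and Thhalv10003120m and AtCMT3 lie apart from the other red points.

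The up-regulated genes included genes under 1 TPM in wild type as well as expressed ones. Among the 36 the wild-type level had a median of 1.32 TPM (range 0.17 to 209.4), against a median of 19.5 TPM over all 17086 genes, and 16 of the 36 were under 1 TPM in wild type, against 1.72% of all genes, while the other 20 were at 1 TPM or more in all 3 libraries. Since the 36 were chosen for high ratios over this wild-type library, low wild-type levels follow in part from the choice, and nothing is read from these shares. In AtCMT3-L1T3 their levels had a median of 10.3 TPM and in AtCMT3-L2T3 of 11.1 TPM. Their median log2 fold changes were 3.13 (range 2.01 to 10.13) and 2.65 (range 2.01 to 9.92). Of the 36, 26 were higher in AtCMT3-L1T3 and 10 in AtCMT3-L2T3, and in 25 the T3 plants were within 2-fold of each other.

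The deposited table pairs its identifiers with no gene names or products, and none of the 26352 identifiers matched the RefSeq table of the species. Names and roles were therefore taken only from the pairs of E. salsugineum and A. thaliana orthologs listed with the study, which cover 1998 genes, 1677 of them among the 17086. These pairs were listed for genes that gained CHG methylation, and the list was held here only in part. Other genes are given by identifier, with no role.

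The largest increase was that of Thhalv10003120m, which was listed at 0.86 TPM in wild type, 962 TPM in AtCMT3-L1T3 and 836 in AtCMT3-L2T3. Its log2 fold changes were 10.13 and 9.92, larger than those of AtCMT3 in both plants. It is described further below together with a gene of the opposite pattern. The levels of this pair added together were lower in both T3 plants than in wild type. The most abundant of the 36 was Thhalv10015083m, with 209.4 TPM in wild type, 2249 TPM in AtCMT3-L1T3 and 3905 in AtCMT3-L2T3 (log2 fold changes of 3.42 and 4.22). Both T3 plants were more than 4-fold above wild type, and across all AtCMT3 plants this gene ranged from 148.3 TPM in AtCMT3-L3T2b to 12224 TPM in AtCMT3-L1T5. Thhalv10004950m showed the widest difference between the T3 plants of the 36. It was at 0.90 TPM in wild type, 55.2 TPM in AtCMT3-L1T3 and 8.52 in AtCMT3-L2T3.

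Of the 36 up-regulated genes 1 had a listed ortholog, where 1677 of all 17086 genes had one. Thhalv10008234m is paired with XTH33, an A. thaliana xyloglucan endotransglucosylase/hydrolase, an enzyme family that cuts and rejoins xyloglucan chains in the cell wall. Its level was 4.29 TPM in wild type, 70.1 TPM in AtCMT3-L1T3 and 22.6 in AtCMT3-L2T3, with log2 fold changes of 4.03 and 2.40. Both T3 plants were above wild type and AtCMT3-L1T3 was the higher. All 7 other AtCMT3 plants were also above wild type, from 10.6 TPM in AtCMT3-L2T5 to 106.4 TPM in AtCMT3-L1T5.

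For the 7 down-regulated genes the wild-type levels ranged from 2.45 to 14.5 TPM, with a median of 3.61 TPM, and only 1 of them was at 10 TPM or more. Thhalv10006407m was that gene, at 14.5 TPM in wild type, 3.47 TPM in AtCMT3-L1T3 and 1.98 in AtCMT3-L2T3 (log2 fold changes of -2.06 and -2.87). The lowest ratios were those of Thhalv10023421m in AtCMT3-L1T3 (-4.62) and of Thhalv10015137m in AtCMT3-L2T3 (-3.63). Thhalv10023421m was at 3.61 TPM in wild type, 0.15 TPM in AtCMT3-L1T3 and 0.54 in AtCMT3-L2T3, while it reached 169.0 TPM in AtCMT3-L3T2, so that plants with the transgene lay both far below and far above wild type. None of the 7 had a listed ortholog.

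At the 4-fold limit the ratios were continuous. Just inside was the up-regulated gene Thhalv10024762m, with log2 fold changes of 2.01 in AtCMT3-L1T3 and 2.85 in AtCMT3-L2T3, and just outside was Thhalv10014242m with 3.13 and 2.00. On the lower side Thhalv10008116m was just inside, with -2.75 and -2.05, and Thhalv10023810m just outside, with -3.53 and -1.99.

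With a limit of log2 1 (2-fold) more genes of moderate and high level were included. In AtCMT3-L1T3 952 genes (5.57%) were up-regulated and 470 (2.75%) down-regulated, and in AtCMT3-L2T3 704 (4.12%) and 298 (1.74%). In both plants 320 genes (1.87%) were up-regulated and 95 (0.556%) down-regulated. The 320 were 33.6% of the list of AtCMT3-L1T3 and 45.5% of that of AtCMT3-L2T3, and the 95 were 20.2% and 31.9%. Between the T3 plants 1222 genes (7.15%) were at least 2-fold apart, 539 (3.15%) higher and 683 (4%) lower in AtCMT3-L2T3, compared with 1422 (8.32%) between AtCMT3-L1T3 and wild type and 1002 (5.86%) between AtCMT3-L2T3 and wild type. At this limit too the plants were about as far from each other as from wild type. Wild-type levels of the 320 genes had a median of 3.20 TPM, with 89 genes under 1 TPM, and those of the 95 a median of 6.56 TPM, with none under 1 TPM.

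Among the abundant transcripts that moved 2-fold, Thhalv10000662m decreased from 1622 TPM in wild type to 439 TPM in AtCMT3-L1T3 and 707 in AtCMT3-L2T3. It was below wild type in all 7 other AtCMT3 plants as well, at 126.0 to 1162 TPM. Thhalv10003681m increased from 229 TPM in wild type to 913 TPM in AtCMT3-L1T3 and 846 in AtCMT3-L2T3. In this gene the T3 plants were close to each other, and of the 7 other plants 3 were above and 4 below wild type, at 35.4 to 412 TPM.

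Of the 320 up-regulated genes 6 had a listed ortholog, where 1677 of all 17086 genes had one. Beside the XTH33 ortholog, Thhalv10001440m is paired with UGT74F2, which in A. thaliana transfers glucose to the defence hormone salicylic acid. It was at 13.7 TPM in wild type, 37.5 TPM in AtCMT3-L1T3 and 34.9 in AtCMT3-L2T3, log2 fold changes of 1.45 and 1.35. The T3 plants were close to each other, but only 3 of the 7 other AtCMT3 plants were above wild type. Thhalv10018484m, paired with the amino acid permease AAP3, an amino acid importer of A. thaliana, was at 1.15 TPM in wild type, 2.86 TPM in AtCMT3-L1T3 and 3.11 in AtCMT3-L2T3. Its log2 fold changes were 1.32 and 1.44, and 2 of the 7 other plants were above wild type. The remaining 3 (Thhalv10023485m, Thhalv10011834m and Thhalv10011806m) are paired with AT1G57590, AT1G51090 and AT1G55160, for which no role is given here. They had log2 fold changes of 1.12 to 1.88 in AtCMT3-L1T3 and 1.11 to 2.30 in AtCMT3-L2T3.

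Of the 95 down-regulated genes 4 had a listed ortholog, where 1677 of all 17086 genes had one. Thhalv10002333m is paired with HSFA2, a heat-inducible transcription factor that sustains the heat shock response in A. thaliana. It was at 16.9 TPM in wild type, 3.03 TPM in AtCMT3-L1T3 and 8.19 in AtCMT3-L2T3, log2 fold changes of -2.48 and -1.04. Both T3 plants were lower than wild type. Of the 7 other plants 4 were below wild type, the lowest at 3.93 TPM, and 3 above, the highest at 186.6 TPM in AtCMT3-L3T2b. Thhalv10023601m, paired with the MYB family transcription factor MYB50, was at 14.3 TPM in wild type, 2.12 TPM in AtCMT3-L1T3 and 4.88 in AtCMT3-L2T3 (log2 fold changes of -2.75 and -1.55), and all 7 other plants were below wild type. Thhalv10004067m, paired with the cytochrome P450 CYP71B9, was at 7.29 TPM in wild type, 3.40 TPM in AtCMT3-L1T3 and 2.65 in AtCMT3-L2T3. Its log2 fold changes were -1.10 and -1.46, and 4 of the 7 other plants were above wild type. The fourth, Thhalv10001997m, is paired with AT2G26180, for which no role is given here, and had log2 fold changes of -1.33 and -2.54.

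Genes of DNA methylation and silencing pathways that had a listed ortholog stayed within 2-fold of wild type about as often as other genes. Of 39 A. thaliana genes listed for these pathways 12 had a paired gene, and 11 of these passed the minimum of 1 TPM. The pairs were listed for genes that gained CHG methylation. The DNA methyltransferases MET1, CMT2 and DRM2 were not among the 12, so these pathways were covered only in part. None of the 11 was up- or down-regulated 2-fold in both plants, where 1.87% and 0.556% of all genes were, and 10 were within 2-fold of wild type in both, as were 88.4% of all genes. Their median log2 fold change was 0.15 in AtCMT3-L1T3 and 0.11 in AtCMT3-L2T3, where the medians over all genes were -0.01 and 0.05. The ortholog of AGO1, the main Argonaute protein of the microRNA pathway, was the most abundant, with 81.6 TPM in wild type, 97.6 TPM in AtCMT3-L1T3 and 107.4 in AtCMT3-L2T3. The ortholog of NRPE1, the largest subunit of RNA polymerase V in RNA-directed DNA methylation, was at 20.8, 20.5 and 22.8 TPM in the same order, and that of DRD1, a chromatin remodeller of the same pathway, at 9.52, 11.5 and 10.03 TPM. The exception to the 2-fold range was FAS1, a subunit of the chromatin assembly factor that deposits histones behind the replication fork. It was at 1.94 TPM in wild type, 1.30 TPM in AtCMT3-L1T3 and 0.92 in AtCMT3-L2T3, log2 fold changes of -0.57 and -1.07. The ortholog of AGO6, an Argonaute protein of RNA-directed DNA methylation, was under the minimum, at 0.15, 0.66 and 0.20 TPM.

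In A. thaliana the histone demethylase IBM1 removes H3K9 dimethylation from transcribed genes and thereby keeps CHG methylation out of them. The study named 3 IBM1-like genes of E. salsugineum. Thhalv10023846m was at 9.89 TPM in wild type, 9.59 TPM in AtCMT3-L1T3 and 12.2 in AtCMT3-L2T3, and Thhalv10029199m at 5.14, 4.54 and 3.37 TPM. Both were within 2-fold of wild type in both T3 plants. Thhalv10020080m was under 1 TPM in all 3 libraries, at 0.24, 0.47 and 0.30 TPM.

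Of 17 A. thaliana heat shock genes listed, 5 had a paired gene. The HSFA2 ortholog was the only one of the 5 that was down-regulated 2-fold in both plants, and none was up-regulated, where the shares of all genes were 0.556% and 1.87%. With 5 genes nothing is read from these counts. The median log2 fold changes of the 5 were -0.36 in AtCMT3-L1T3 and -0.26 in AtCMT3-L2T3. The orthologs of HSFA1D and HSFA1E, factors that act at the start of the heat shock response, were within 2-fold of wild type. That of HSFA1E was at 16.1 TPM in wild type, 9.33 TPM in AtCMT3-L1T3 and 14.0 in AtCMT3-L2T3.

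The labelled tissue, leaf, could not be checked, and only a few chloroplast genes could be described. Of 13 chloroplast genes listed, 3 had a paired gene, and these were PGK1, a phosphoglycerate kinase, FTSH2, a protease of the thylakoid membrane, and SIG2, a sigma factor of chloroplast transcription. All 3 were expressed, with means of 67.4 to 560 TPM, and within 2-fold of wild type in both T3 plants, as were 88.4% of all genes. Thhalv10020621m, the PGK1 ortholog, was at 546.5 TPM in wild type, 642 TPM in AtCMT3-L1T3 and 492.4 in AtCMT3-L2T3. The defining leaf genes for the small subunit of Rubisco and the chlorophyll-binding proteins were not among the ortholog pairs used here, nor were marker genes of flower or root, so the part of tissue composition in the differences was not tested.

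A pair of genes was listed in an either-or manner. The genes were paired after their values were seen, so the counts below follow in part from that choice. Thhalv10003123m was listed at 2039 TPM in wild type and at 0 in both T3 plants, while Thhalv10003120m was at 0.86 TPM in wild type and at 962 and 836 TPM in the T3 plants. Added together, the pair was at 2039 TPM in wild type, 962 TPM in AtCMT3-L1T3 and 836 in AtCMT3-L2T3. The sum was thus lower, not higher, in both T3 plants. In each of the 10 libraries exactly 1 of these genes was at 100 TPM or more (156.4 to 2318 TPM) and the other was under 1 TPM (at most 0.86 TPM). Thhalv10003120m was the higher in 5 libraries, which were both T3 plants, AtCMT3-L1T4, AtCMT3-L1T5 and AtCMT3-L3T2b. Thhalv10003123m was the higher in the other 5, which were wild type, all later plants of lineage 2 and AtCMT3-L3T2. For this pair the later plants of lineage 2 were on the side of wild type and their T3 relative on the other side. Whether the genes have similar sequences, so that reads or assembled transcripts could be assigned to either of them, was not tested, since no genome or transcript sequence of this annotation was used here.

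**Figure D2:**
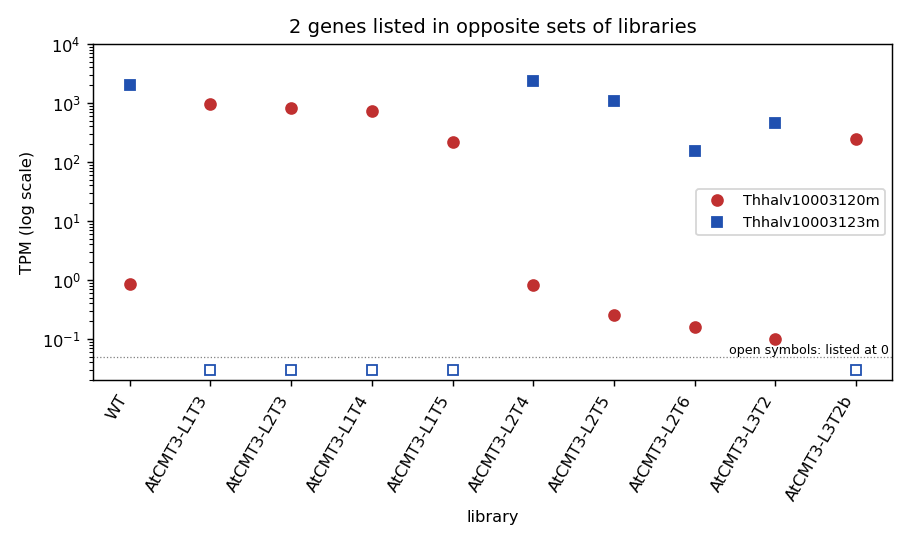
TPM (log scale) of Thhalv10003120m (red circles) and Thhalv10003123m (blue squares) in each of the 10 libraries, with open symbols for values listed at 0. In every library 1 of the genes lies at 156.4 TPM or above and the other at 0.86 TPM or below, with wild type and the T3 plants on opposite sides.

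Among the 67 genes listed at 0 in 1 or 2 of the 3 libraries, 8 were at 0 in wild type and at 1 TPM or more in both T3 plants, and 9 were at 0 in both T3 plants and at 3 TPM or more in wild type. No fold change is given for these genes, because the table has no counts from which a detection limit could be set and an exact 0 can be a failed estimate. None was at 0 in 1 T3 plant and 4-fold down in the other. Of the 8, only Thhalv10010369m was at 10 TPM or more in both T3 plants. It was listed at 0 in wild type, 44.2 TPM in AtCMT3-L1T3 and 35.5 in AtCMT3-L2T3, and among the 7 other plants only AtCMT3-L3T2 was at 0, with 50.15 to 120.0 TPM in the rest. Thhalv10012369m was the only 1 of the 8 above 0 in all 9 AtCMT3 plants. It was at 0 in wild type, 6.82 TPM in AtCMT3-L1T3 and 7.72 in AtCMT3-L2T3, and at 5.48 to 9.74 TPM in the other 7 plants, a narrow range. In contrast Thhalv10015934m was above 0 only in the T3 plants, at 5.64 and 5.09 TPM, and was listed at 0 in wild type and in all 7 other plants.

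All 9 genes that were at 0 in both T3 plants were above 0 in at least 1 of the 7 other AtCMT3 plants, and 5 of them were at 10 TPM or more in wild type. Beside Thhalv10003123m the highest was Thhalv10028160m, at 236 TPM in wild type, 116.3 TPM in AtCMT3-L1T4 and 0 in the other 8 AtCMT3 plants. Thhalv10022906m was at 163 TPM in wild type, 147.2 TPM in AtCMT3-L1T4 and 148.7 TPM in AtCMT3-L2T4, and at 0 in the other plants. In both genes the later T4 plant of lineage 1 was above 0 and its T3 relative at 0.

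Zeros occurred in each of the 3 libraries. Wild type alone was at 0 in 10 of the 67 genes, AtCMT3-L1T3 alone in 15 and AtCMT3-L2T3 alone in 20. Wild type alone was above 0 in 9 genes, AtCMT3-L1T3 alone in 8 and AtCMT3-L2T3 alone in 5. A gene at 0 in 1 T3 plant only can be well expressed elsewhere. Thhalv10020535m was at 0 in AtCMT3-L2T3 but at 60.7 TPM in wild type, 69.8 TPM in AtCMT3-L1T3 and 57.1 to 112.3 TPM in the 7 other plants.

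The genes that moved in both T3 plants did not keep their direction throughout the other plants. Of the 36 up-regulated genes 9 were above wild type in all 7 other AtCMT3 plants, where this held for 13.5% of all genes, and 8 of these were genes other than AtCMT3. By plant, the number of the 36 above wild type was 23 in AtCMT3-L1T4, 31 in AtCMT3-L1T5, 21 in AtCMT3-L2T4, 20 in AtCMT3-L2T5, 22 in AtCMT3-L2T6, 10 in AtCMT3-L3T2 and 21 in AtCMT3-L3T2b. In the same order 43.9%, 41.6%, 45.4%, 36.0%, 43.4%, 48.4% and 61.4% of all genes were above wild type. The share of the 36 was 86.1% in AtCMT3-L1T5, the highest, and 27.8% in AtCMT3-L3T2, the lowest, and in AtCMT3-L3T2b it was 58.3%, below that of all genes. In 12 of the 36 no other plant was 4-fold above wild type, which was the case for 93.9% of all genes. In 16 of the 36 both T3 plants were above all 7 other plants, against 9.79% of all genes. The wild-type library is shared by all these ratios, and the members were chosen for being high in the T3 plants over it, so these counts are a description.

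In 3 of the 36 all 7 other plants were 4-fold above wild type, namely AtCMT3, Thhalv10012375m and Thhalv10015186m. Thhalv10012375m was at 0.20 TPM in wild type, 3.56 TPM in AtCMT3-L1T3 and 2.26 in AtCMT3-L2T3, and at 1.92 to 8.63 TPM in the other plants. Thhalv10022892m was above wild type in all 9 AtCMT3 plants, at 1.42 TPM in wild type, 9.36 TPM in AtCMT3-L1T3, 9.03 TPM in AtCMT3-L2T3 and 5.33 to 15.6 TPM in the other plants. For these genes wild type was the lowest of all 10 libraries.

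Of the 7 down-regulated genes 4 were below wild type in all 7 other plants, where this held for 15.8% of all genes. They were Thhalv10000299m, Thhalv10006407m, Thhalv10016838m and Thhalv10008116m. In Thhalv10008116m wild type was at 3.32 TPM, the T3 plants were at 0.49 and 0.80 TPM and the other plants at 0.12 to 0.76 TPM. All 9 AtCMT3 plants were at least 4-fold below wild type in this gene. As with the up-regulated genes, these are levels of 1 wild-type plant against the rest.

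**Figure D3:**
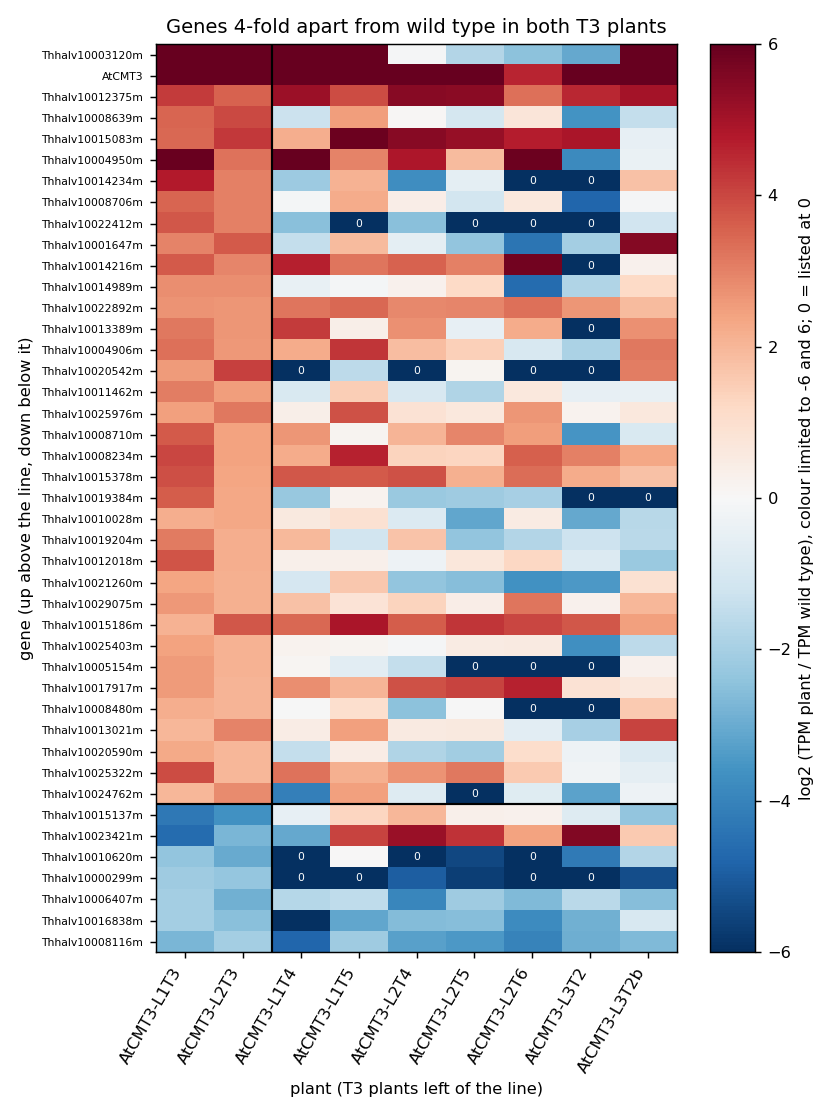
Log2 ratio of TPM to wild type (colour, red above and blue below wild type, with the scale limited at both ends) for the 36 genes up-regulated and the 7 down-regulated 4-fold in both T3 plants (rows) in the 9 AtCMT3 plants (columns), where 0 marks values listed at 0. The T3 columns are red or blue by construction, and in the other 7 columns 9 of the 36 upper rows stay red throughout and 4 of the 7 lower rows stay blue.

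Wild type and the T3 plants were the 3 libraries most alike in the series. Over the 16998 genes above 0 in all 10 libraries whose mean over these libraries was 1 TPM or more, 126 genes were 4-fold apart between wild type and AtCMT3-L2T3, 127 between the T3 plants and 171 between wild type and AtCMT3-L1T3. The other 42 pairs of libraries were 4-fold apart in 283 to 1534 genes (median 975). Wild type differed from the 7 other AtCMT3 plants in 536 to 1191 genes. AtCMT3-L3T2 and AtCMT3-L3T2b, plants of 1 lineage and generation, were 4-fold apart in 677 genes, more than the T3 plants were from each other or from wild type. The T3 plants differed from later generations of their own lineages in 635 to 1359 genes. A T3 plant was thus nearer to wild type and to the T3 plant of the other lineage than to the later plants of its own lineage. This was not particular to T3. The T4 plants of lineages 1 and 2 were 283 genes apart, and each was 379 or more from the other plants of its own lineage. Of the 10 columns 5 were deposited in FPKM, among them those of wild type, both T3 plants, AtCMT3-L1T4 and AtCMT3-L2T4, and 5 in TPM. The sources used here give no growth, extraction or sequencing date for the libraries, so generation and batch cannot be told apart.

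**Figure D4:**
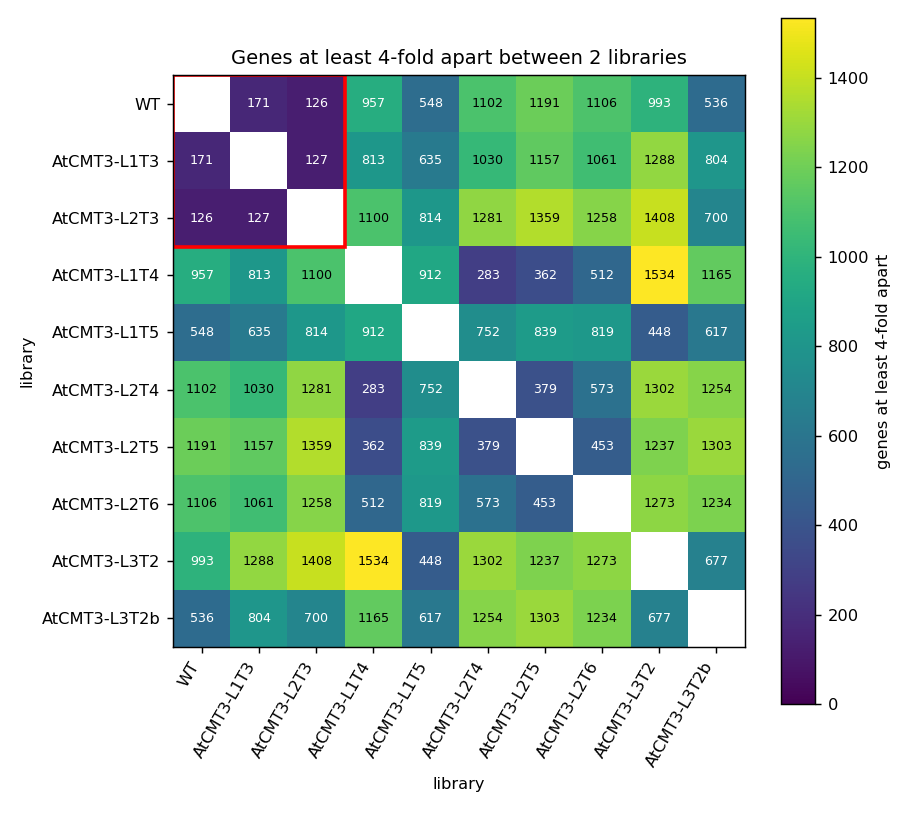
Number of genes at least 4-fold apart (colour and printed number) between each pair of the 10 RNA-seq libraries, over genes above 0 in all of them. The red frame holds wild type and both T3 plants, with 126 to 171 genes, and all 42 other pairs have 283 or more.

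No gene was 4-fold up in 1 T3 plant and 4-fold down in the other. At the 2-fold limit 23 genes were in opposite directions, 13 of them up in AtCMT3-L1T3 and 10 up in AtCMT3-L2T3. The most abundant was Thhalv10014071m, at 131.8 TPM in wild type, 284.9 TPM in AtCMT3-L1T3 and 57.0 in AtCMT3-L2T3.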

How the data were processed

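RNA-seq libraries were made by the authors with a stranded mRNA kit. Per the methods of the study reads were trimmed, aligned to the E. salsugineum genome v1.0 (with AtCMT3 listed in the table as a gene) with HISAT2 and quantified with StringTie. The submitters' processing notes give HISAT2 2.1.0 and StringTie 1.3.3b, and the methods name another HISAT2 version. The authors deposited 1 table of 26352 genes. Its columns are all headed FPKM, but 5 deposited columns sum to 1000000 and are TPM, while 5, including the 3 compared here, are FPKM. All columns were rescaled to a total of 1000000 (TPM). Without counts the depth is unknown, no count model was used and no error is given.

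Log2 ratios to wild type were computed without a pseudocount for genes above 0 in the 3 libraries with a mean of at least 1 TPM. The limits were log2 2 and 1. Members, limits and lists were chosen with earlier results of these data known. Genes were named by a rule: AtCMT3, identifiers the study names, the genes with the largest smaller ratio, the most abundant 2-fold genes, those with a listed ortholog, and genes at 0; of these a selection is printed, since most carry no annotation. Thhalv10015186m, Thhalv10014071m and Thhalv10020535m, and those named at the 4-fold limit, were picked after their values were seen. The pairing of Thhalv10003120m with Thhalv10003123m was also made after their values were seen. Lists planned by product words could not be applied, since 0 of 26352 identifiers matched the 33009 genes of the RefSeq table, and were replaced by lists of A. thaliana genes (DNA methylation and silencing, heat shock, chloroplast) matched through the ortholog pairs of the study. The counting code was tested on simulated data with changes set well past the limit. This checks the code only and says nothing about noise in these libraries. Alternatives were the values as deposited, median-centring, pseudocounts, other minima and other limits. Python 3.11.15, numpy 2.4.6, pandas 2.3.3 and matplotlib 3.10.9 were used. Bisulfite and ChIP-seq samples were not used here.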

Additional observations from a re-analysis of the deposited data

Results flagged for a closer look

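The 23 genes that were 2-fold from wild type in opposite directions in the T3 plants stood out because the single plants of lineages 1 and 2 moved apart, and the difference was not tested. Log2 fold changes of opposite sign within 2-fold of wild type, also not tested, were seen in 8 of the IBM1-like and list genes. They are given here for AtCMT3-L1T3 and then AtCMT3-L2T3. The log2 fold changes were -0.044 and 0.30 for the IBM1-like gene Thhalv10023846m, -0.023 and 0.13 for the NRPE1 ortholog, 0.042 and -0.15 for HYL1, which assists microRNA processing, and -0.16 and 0.27 for JMJ16, a histone demethylase. In the same order they were 0.61 and -0.39 for CPN60A, a chaperonin subunit of the chloroplast, 0.23 and -0.15 for PGK1, 0.0055 and -0.16 for FTSH2 and 0.35 and -0.41 for SIG2.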

How the results depend on the processing

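Counts are given below as up in both T3 plants, down in both, up and down in AtCMT3-L1T3, up and down in AtCMT3-L2T3, and apart between the T3 plants, and only counts that moved by over 1.5 times are printed. With no minimum they were 58, 18, 211, 112, 156, 109 and 279, with a mean of at least 5 TPM 20, 1, 70, 14, 45, 17 and 53, and with at least 1 TPM in each library 20, 1, 77, 19, 55, 19 and 63. A limit of log2 1 gave 320, 95, 952, 470, 704, 298 and 1222, and a limit of log2 3 gave 9, 1, 35, 8, 19, 16 and 33. A pseudocount of 1 TPM gave 17 up in both, 71 up and 20 down in AtCMT3-L1T3, 45 up in AtCMT3-L2T3 and 74 between the T3 plants, and lowered the log2 fold changes of AtCMT3 to 5.995 and 7.025. Under it the count down in both stayed within 1.5 times, but its genes changed. None of the 7 genes reported as down in both kept a log2 of -2 or less in both plants. A pseudocount of 0.1 TPM, which also takes in genes at 0, moved only the count down in both, to 13. The values as deposited and median-centring changed the counts, but none by over 1.5 times. They shifted the log2 fold change of a named gene by at most 0.02 and 0.05. The values of the 44 single named genes were computed only under both pseudocounts, the values as deposited and median-centring. Of these values 344 belong to genes other than AtCMT3. All kept their sign, but sizes changed. Under a pseudocount of 1 TPM the log2 fold changes of Thhalv10012375m fell from 4.18 and 3.52 to 1.93 and 1.44, below the 4-fold limit. Those of Thhalv10015083m were 3.42 and 4.21, against 3.42 and 4.22 without it. Of the 8 genes of opposite sign above, only Thhalv10023846m was among the 44. The depth is unknown, so the precision of ratios of low values is unknown too. No paired analysis was possible because each plant has 1 library. Leaving out a replicate was not possible either.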
